A study of Danio rerio with 16 samples.

Results

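The genes described here are 10 transcription regulators of the zebrafish tailbud and presomitic mesoderm: msgn1, tbx16, tbx6, tbx24, cdx4, cdx1a, ntla, mespa, mespb and ripply1. They were chosen by name, as the genes whose symbol in the deposited expression tables equals 1 of these names, and each name matched 1 gene, so the group holds 10 of the 28364 genes shared by all libraries. The zebrafish were wild type, AB strain, and their RNA was sequenced as 7 libraries in 5 groups. These were whole embryos at 24 hours post fertilization (hpf) from 3 biological samples, and 1 library each of an embryo pool covering 16 to 36 hours, of complete larvae aged 5 days, of entire heads of adults and of entire adult tails. The pool's age is given in 2 ways, as 16 to 36 hours in its title and as 16 somites to 24 hpf in its stage label, and 16-36 hpf pool is the name used for it. The sources used here do not give the number of animals in each library, their sex or the age of the adults. No group carries a mutation, transgene or treatment.

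The tailbud is the growth zone at the posterior end of the vertebrate embryo. Its progenitors feed the presomitic mesoderm, the unsegmented tissue beside the neural tube and notochord from which somites bud off in a steady rhythm, and somites later give rise to skeletal muscle, vertebrae and dermis. T-box and caudal-type factors keep the progenitors and start the mesodermal programme under Wnt and FGF signals, a clock of Notch-dependent repressors times the segments, and Mesp and Ripply factors act at the front of the tissue where a segment is laid down. In zebrafish, segmentation is close to its end at the 24 hpf stage, so the tailbud is then a small part of the whole embryo.

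Symbols are those of the deposited tables and are older than current usage. In the table of gene names used here, the gene listed as tbx6 (ENSDARG00000006939) is called tbx16l and the gene listed as tbx24 (ENSDARG00000011785) is called tbx6, while mespa and mespb are mespaa and mespba. The other IDs are ENSDARG00000007329 for tbx16, ENSDARG00000009905 for ntla, ENSDARG00000070546 for msgn1, ENSDARG00000017078 for mespa, ENSDARG00000030347 for mespb, ENSDARG00000036292 for cdx4, ENSDARG00000087811 for cdx1a and ENSDARG00000054103 for ripply1. On the Zv9 genome, as listed for the pool, larva, head and tail, the T-box genes lie at chromosome 8, 54012018 to 54031716 (tbx16), chromosome 5, 43898953 to 43915915 (tbx6), chromosome 12, 4593056 to 4603583 (tbx24) and chromosome 19, 30633856 to 30637909 (ntla). The gene msgn1 lies at chromosome 4, 16557 to 17644, and ripply1 at chromosome 21, 36930712 to 36937075. Both caudal-type genes are on chromosome 14, cdx1a at 3399768 to 3403841 and cdx4 at 33816790 to 33820242. Both mesp genes are on chromosome 7, mespb at 16082276 to 16085567 and mespa at 16098652 to 16101163, with 13085 bases between them. The interval is the same in the 24 hpf tables for msgn1 and cdx1a, and its ends differ for the other 8 genes.

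Reads counted on genes came to 40899061 to 44962951 in the 24 hpf libraries and to 8017208 to 11045403 in the other 4. Levels are in CPM (normalised read counts, scaled to a common library size with TMM factors). Brain and retina markers went with the labels of head and tail. The 7 genes of brain neurons summed to 1857 CPM in the head and 28.2 in the tail, and 6 retina genes to 5577 and 3.26. Fast skeletal muscle did not set them apart, with 9 genes at 12426 CPM in the head and 11898 in the tail. In the tail, 15 oocyte and egg coat genes summed to 4047 CPM, with figla and FIGLA (2 of 2) at 0, against at most 23.6 in any other library. The annotation and the depth differ between the 24 hpf libraries and all others, and their part in each difference from 24 hpf cannot be told apart from stage. In whole-animal RNA, fewer cells of a type and less RNA per cell cannot be told apart either. Only 24 hpf has replicates, so its values are mean ± SD over n = 3 samples and all others come from 1 library.

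At 24 hpf the 10 genes covered a wide range of levels, with 5 of them close together at the top. Levels of different genes were compared in FPKM, which divides by transcript length. The T-box gene ntla had 15.4 ± 0.445 FPKM, cdx4 13.3 ± 7.43, msgn1 11.1 ± 7.37, tbx24 10.7 ± 7.37 and ripply1 10.3 ± 3.65. The sample ranges of neighbours in this order overlapped, while ntla, at 14.9 FPKM or more, lay above ripply1, at 14.2 or less, in every sample. The lowest sample among these 5 genes was that of msgn1 with 5.07 FPKM, just above the highest sample of the next gene, tbx6, with 4.24. The mean of tbx6 was 2.48 ± 1.57 FPKM, that of tbx16 1.66 ± 0.766 and that of mespa 1.09 ± 0.466. The lowest means were those of cdx1a, at 0.604 ± 0.594 FPKM, and mespb, at 0.329 ± 0.125. Each of these lower genes overlapped its neighbour in the order. With CPM, which takes no account of length, tbx24 ranked 2, cdx4 3 and msgn1 4, and mespb and cdx1a exchanged places at the end.

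**Figure D1:**
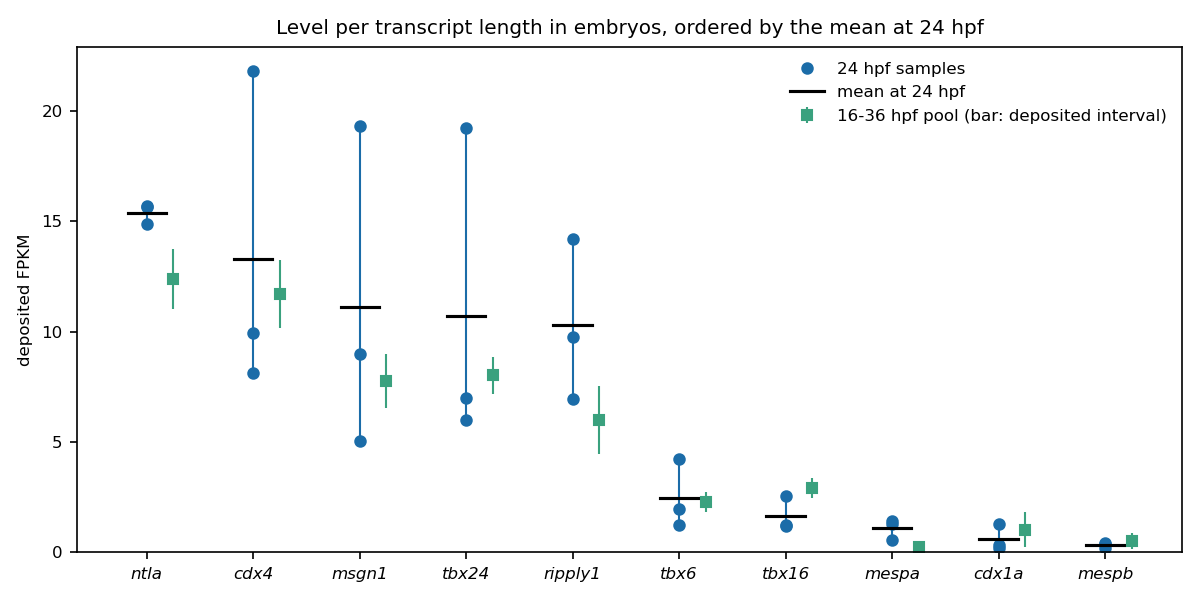
FPKM of the 10 genes at 24 hpf, ordered by their mean, with 1 point per sample. The 24 hpf ranges of ntla, cdx4, msgn1, tbx24 and ripply1 overlap, except that ntla lies above ripply1 throughout, and all of their 24 hpf points lie above those of the other 5 genes.

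The T-box factors bind DNA through a shared domain and act at successive steps from progenitor to segment. In zebrafish, tbx16 (spadetail) lets mesodermal progenitors leave the tailbud for the paraxial mesoderm. It had 6.88, 14.2 and 7.40 CPM in 24 hpf samples 1, 2 and 3, against 14.4 in the pool. Its later levels were 0.405 CPM in larvae, 0.420 in heads and 0.225 in tails, which rest on 4, 4 and 2 reads. The gene listed as tbx6 acts with tbx16 in posterior paraxial mesoderm. Its 24 hpf samples had 5.93, 19.4 and 9.72 CPM and the pool 9.38, against 0.608 in larvae, 0.210 in heads and 0.225 in tails. Sample 2 was the highest for both genes, and every sample of 24 hpf lay above the larva, head and tail.

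The gene listed as tbx24 (fused somites) is needed in the anterior presomitic mesoderm for somite boundaries to form. It reached 26.4, 69.04 and 23.96 CPM in the 24 hpf samples and 34.04 in the pool. Later it was at 2.84 CPM in larvae, 5.24 in heads and 2.14 in tails, from 28, 50 and 19 reads. By FPKM its 1.36 was the highest head value among the 10 genes. The gene ntla (no tail) is a zebrafish Brachyury gene, needed for the notochord and for the posterior body. It had 51.6, 47.4 and 52.7 CPM in the 24 hpf samples, the closest agreement among the 10 genes. The pool had 36.2 CPM of ntla, the larva 9.42, the head 0.315 and the tail 1.24. The larval value rests on 93 reads, and by FPKM, at 4.79, it was the highest of the 10 genes in that library. Summed CPM of 9 notochord markers was 2575 to 3440 at 24 hpf. The pool held 3514 of them and the larva 3612. The head held 60.5, with col8a1a at 0, and the tail 11.5, with flh at 0. The part of notochord cells in the ntla values was not tested.

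**Figure D2:**
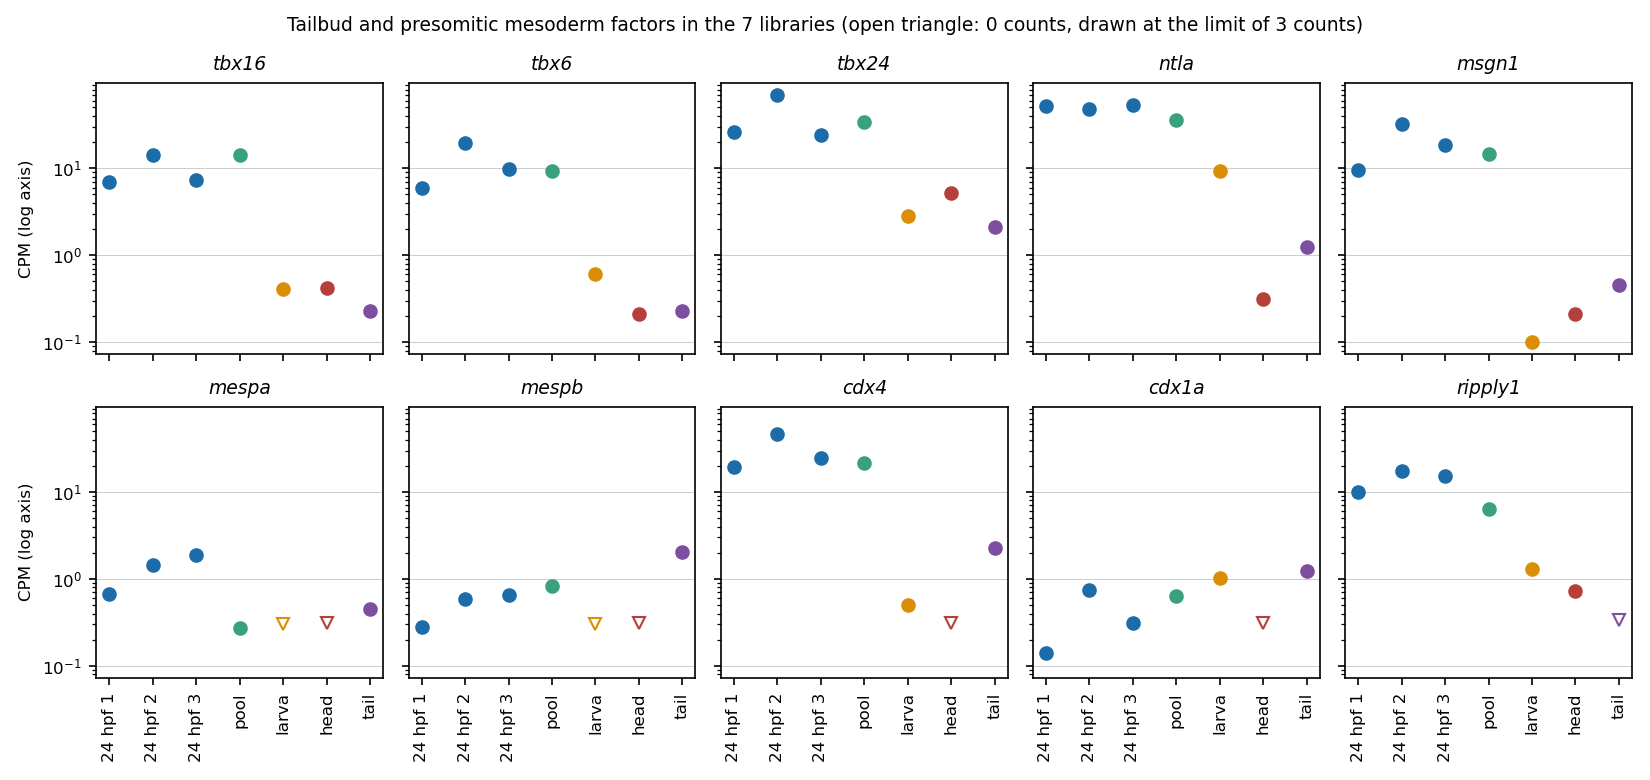
CPM of each of the 10 genes in the 7 libraries, on a log axis, with 1 point per library and an open triangle at the limit of 3 counts where a library had 0. The 24 hpf samples and the pool lie above the larva, head and tail for tbx16, tbx6, tbx24, ntla, msgn1, cdx4 and ripply1, but not for mespa, mespb and cdx1a.

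Of the basic helix-loop-helix factors, msgn1 (mesogenin 1) drives progenitors into presomitic mesoderm together with tbx16. Its 24 hpf samples had 9.66, 32.4 and 18.5 CPM and the pool 14.7. Its later levels were 0.101 CPM in larvae, 0.210 in heads and 0.450 in tails, which rest on 1, 2 and 4 reads. The genes mespa and mespb are switched on in stripes where the next segment forms and give it its front and back polarity. Both were low at 24 hpf: mespa had 0.672, 1.46 and 1.89 CPM and mespb 0.280, 0.580 and 0.650, with sample 3 the highest for both. In the pool mespa had 0.273 CPM and mespb 0.819. Both had 0 reads in the larva and the head, where 3 counts, the limit a count of 0 allows, are 0.304 and 0.315 CPM. In the adult tail mespa had 0.450 CPM from 4 reads and mespb 2.02 from 18 reads, above its 3 samples at 24 hpf. Reads of these genes may be shared with close mesp copies, so their split is uncertain.

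The caudal-type homeobox factors set posterior identity and feed Wnt signals into the Hox genes. For cdx4 (kugelig), the 24 hpf samples had 19.4, 46.4 and 24.8 CPM and the pool 21.5. It was at 0.506 CPM in the larva from 5 reads, at 0 in the head and at 2.25 in the tail from 20 reads. The gene cdx1a was scarce in every library. It had 0.140, 0.746 and 0.311 CPM in the 24 hpf samples and 0.637 CPM in the pool. Larvae had 1.01 CPM, heads 0 and tails 1.24, and no library held more than 27 reads. Finally, ripply1 couples a Groucho-type co-repressor to T-box proteins and ends the presomitic programme as a segment forms. It had 9.96, 17.5 and 15.17 CPM in the 24 hpf samples and 6.37 in the pool. In the larva it had 1.32 CPM and in the head 0.734, from 13 and 7 reads, and in the tail 0.

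Among the 24 hpf samples, most of these genes were highest in sample 2, and ntla was not. The ratio of sample 2 to samples 1 and 3 was 3.36 and 1.75 for msgn1, 3.27 and 2.00 for tbx6, 2.62 and 2.88 for tbx24, 2.39 and 1.87 for cdx4, and 2.07 and 1.93 for tbx16. For cdx1a, whose samples hold 5, 27 and 11 reads, it was 5.33 and 2.40. These 6 of the 10 genes were at least 1.5 times both other samples in sample 2. Among the 8 with a mean of 1 CPM or more, which leaves out cdx1a and mespb, there were 5, and the step held for 2.59% of the 16628 genes whose 24 hpf mean was at least 1 CPM. That step was chosen after the values were seen. Sample 2 was also highest for ripply1, at 1.75 times sample 1 and 1.15 times sample 3. Sample 3 was highest for mespa, mespb and ntla, and sample 1 for none of the 10. Among the 8 with a mean of 1 CPM or more, sample 2 was highest for 6 and sample 3 for 2. Of the 16628 genes, 26.1% were highest in sample 2, 43.5% in sample 3 and 30.4% in sample 1. The same step up in sample 1 was found in 2.39% of genes and in sample 3 in 6.0%, and in 0 of the 10 for each.

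**Figure D3:**
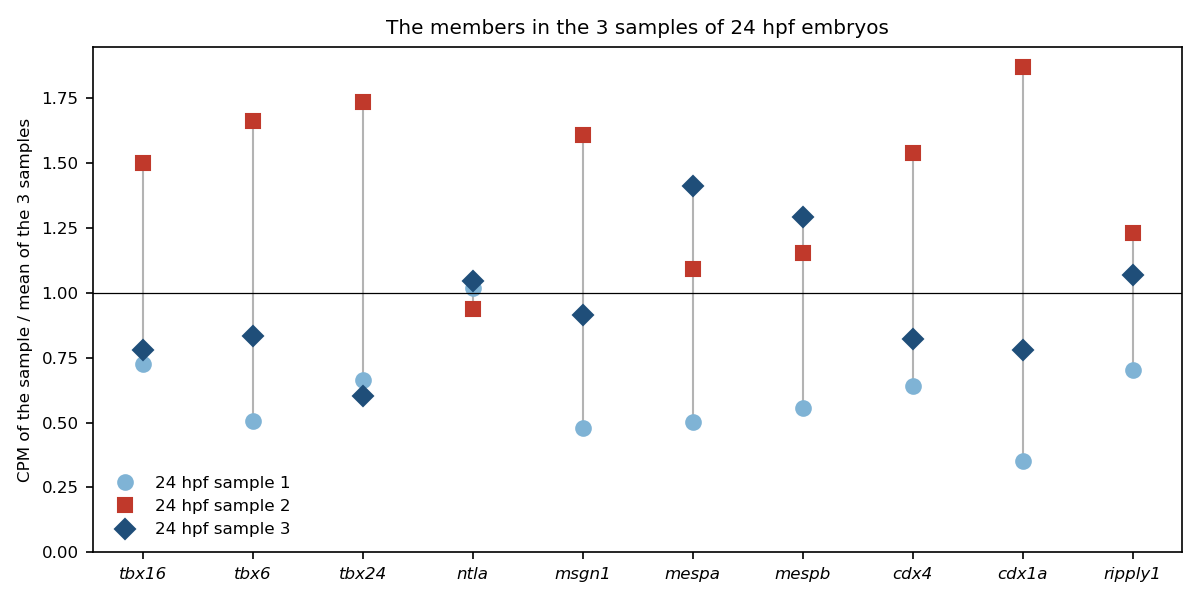
CPM of each biological sample of 24 hpf divided by the mean of the 3 samples, for the 10 genes, on a linear axis. A line joins the lowest and highest sample of a gene. Sample 2 is the highest for msgn1, tbx6, tbx24, cdx4, tbx16, cdx1a and ripply1, while the samples of ntla, at 47.4 to 52.7 CPM, stay close to their mean.

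The coefficient of variation (SD over mean) put numbers on this spread. It was 63.7% for tbx24, 59.5% for tbx6, 56.9% for msgn1, 47.3% for cdx4 and 43.2% for tbx16. Among genes within 2-fold of the same mean level, these lay at percentiles 99.3, 98.4, 98.6, 97.6 and 92.5. By contrast, ntla varied by 5.53%, at percentile 9.42 of genes of its level. For ripply1 the value was 27.1%, at percentile 76.4. The scarce genes mespa (46.1%, percentile 76.5), mespb (39.1%, percentile 49.6) and cdx1a (78.3%, percentile 89.1) lay at lower percentiles than those 5. The median was 46.7% over the 10 genes and also over the 8 with a mean of 1 CPM or more, against 18.2% over the 16628 genes.

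The 24 hpf samples also differed in other genes, and not only sample 2 stood apart. The summed CPM of 9 fast skeletal muscle genes in sample 2 was 4615, against 8963 in sample 1 and 10546 in sample 3. For 8 hatching gland genes sample 3 was the low one, at 2671 CPM against 6427 in sample 1 and 5772 in sample 2. The part of these differences in the member values was not tested. Among lists of genes linked to the tailbud and somites by pathway or role, the step was uneven. In whole-embryo RNA the values of these lists may also come from other tissues. Of 20 genes of the segmentation clock and Delta-Notch pathway, 3 were at least 1.5 times both others in sample 2: the clock repressors her1 (4.76, 11.8 and 6.27 CPM), her7 (1.68, 4.39 and 1.84) and her11 (2.94, 5.05 and 2.01). Only steps up were counted, and other genes of this list were lowest in sample 2. Among them were her12 (49.0, 29.2 and 45.1 CPM), a gene listed as her15.1 (17.5, 11.3 and 17.6) and a gene listed as notch1a (17.4, 11.2 and 24.1). Of 25 genes of Wnt, FGF and retinoic acid signalling there were 3, the ligand gene fgf17 and both genes listed as wnt8a. Among 19 genes of somite boundaries it was fn1b, a fibronectin gene, and among 13 genes of tailbud progenitors and ventral posterior mesoderm vent and chd. The paralogue ripply2 showed it too, and 0 of 6 myogenic regulators and 0 of 12 terminal posterior Hox genes did. Over the 16628 genes the share with this step was 2.59%, so lists this short cannot show a lower share. The median log2 ratio of sample 2 to the others was 1.04 over the 10 genes and -0.05 over the 16628 genes. Over the 3 paralogues at 1 CPM or more it was 0.41, over the Wnt, FGF and retinoic acid genes 0.13 and over the myogenic regulators 0.08. It was 0.02 over the progenitor genes, 0.02 over the somite genes, -0.29 over the clock list and -0.24 over the Hox list. The genes named here for the step were named after their values were seen.

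**Figure D4:**
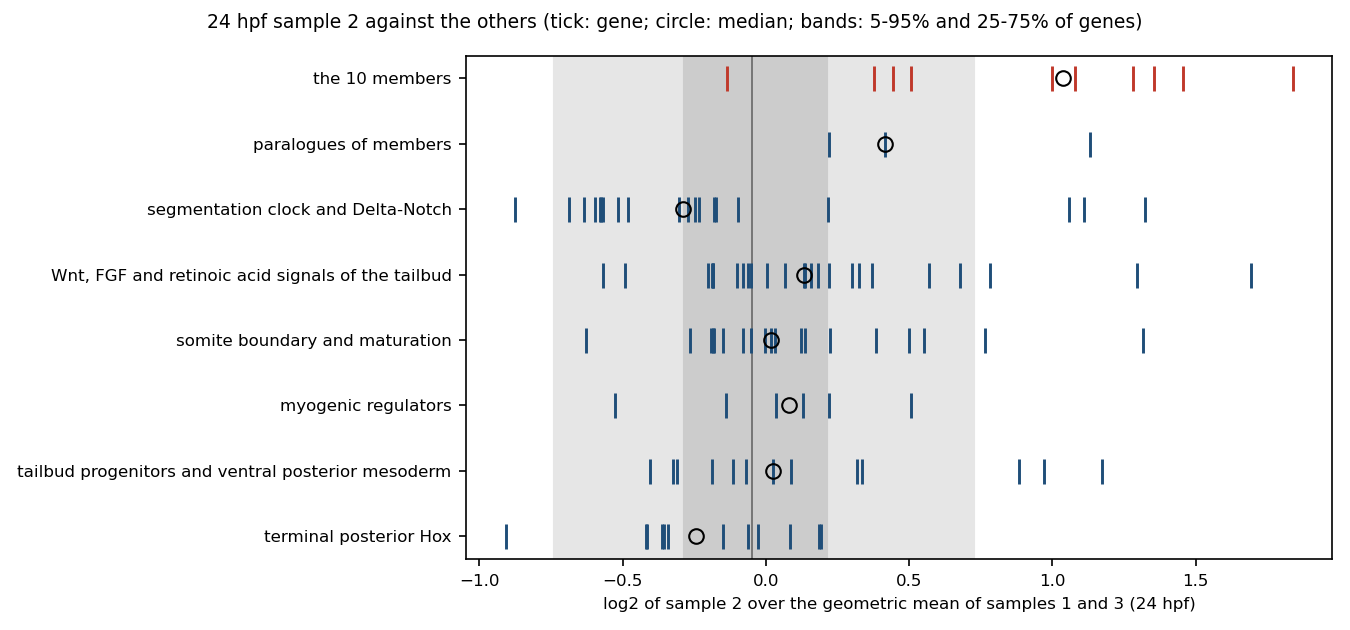
Log2 ratio of 24 hpf sample 2 to the geometric mean of samples 1 and 3, with 1 tick per gene and a circle at the median of each list, over bands that hold 50% and 90% of genes. The median of the 10 genes is 1.04, and the medians of the lists range from -0.29 (clock) to 0.41 (paralogues).

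Against 24 hpf, none of the 10 genes passed the test in the pool. The edgeR quasi-likelihood test with Benjamini-Hochberg adjustment over 21128 genes called 0 higher and 0 lower, where 6.32% of all genes were called higher and 5.55% lower. At these shares a group of 10 genes cannot show a lower share. DESeq2 and limma-voom also called 0, though DESeq2 gave no adjusted p here for mespa, mespb and cdx1a. By edgeR 1 gene, ripply1, had an unadjusted p under 0.05. Its log2 change was -1.16 (SE 0.47, edgeR adjusted p = 0.143). The median log2 change of the 10 genes was -0.39, against -0.08 over all genes. The largest changes in size were -2.27 for mespa (SE 1.16), from 3 reads in the pool, and ripply1's. For tbx16 the change was 0.60 (SE 0.49), for ntla -0.48 (SE 0.27), for cdx4 -0.49 (SE 0.51), for msgn1 -0.45 (SE 0.64), for tbx6 -0.32 (SE 0.66) and for tbx24 -0.23 (SE 0.61). Without 24 hpf sample 2 the last 3 turned to 0.07, 0.26 and 0.43. The changes of mespb and cdx1a, from 9 and 7 reads in the pool, were 0.70 (SE 0.84) and 0.66 (SE 1.15), and without sample 2 that of cdx1a was 1.47.

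In the 5-day larva, 8 of the 10 genes were lower than at 24 hpf and 0 higher, where 23.2% of all genes were called lower and 26.4% higher. That count is from edgeR, while DESeq2 called 7 lower and limma-voom 2. DESeq2 and limma-voom called 0 higher too, and 0 of the 10 were higher at an unadjusted edgeR p under 0.05. The T-box genes all fell, with log2 changes of -4.53 for tbx16 (SE 0.89), -4.25 for tbx6 (SE 1.03), -3.81 for tbx24 (SE 0.83) and -2.42 for ntla (SE 0.32). By the edgeR quasi-likelihood test their adjusted p ranged from 0.00106 for ntla to 0.0128 for tbx6. The change of ntla was the smallest among the 7 called genes with reads in the larva. Without 24 hpf sample 2 the change of tbx24 was -3.15. In the same edgeR test the log2 change was -7.56 for msgn1 (SE 1.35, adjusted p = 0.00366), -5.88 for cdx4 (SE 0.86, adjusted p = 0.00168) and -3.43 for ripply1 (SE 0.60, adjusted p = 0.00345). With 0 reads in the larva, mespa was 4.42-fold lower or more against a floor of 3 counts (edgeR adjusted p = 0.0453). This bound leaves out the counting error of 24 hpf, and the exact 95% lower limit with it was 3.54. The call was lost without 24 hpf sample 2 (edgeR adjusted p = 0.0940). For mespb the bound was 1.66-fold (edgeR adjusted p = 0.104), and cdx1a had a log2 change of 1.33 (SE 1.05, adjusted p = 0.325), neither of which passed.

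In the adult head, 8 of the 10 were lower and 0 higher, against 29.8% and 32.3% of all genes. Here too DESeq2 called 7 lower and limma-voom 2, against the 8 of edgeR. DESeq2 and limma-voom again called 0 higher, as did an unadjusted edgeR p under 0.05. Here ntla had a log2 change of -7.30 (SE 0.50, edgeR adjusted p = 5.19e-05), from 3 reads in the head. The log2 change was -6.55 for msgn1 (SE 1.22), -5.76 for tbx6 (SE 1.26), -4.48 for tbx16 (SE 0.89) and -4.26 for ripply1 (SE 0.67), with edgeR adjusted p of 0.00292, 0.00592, 0.00386 and 0.00139. Among the called genes with reads in the head, the change of tbx24 was the smallest, at -2.92 (SE 0.76, edgeR adjusted p = 0.0128). Without 24 hpf sample 2 it was -2.26, and that of tbx6 -5.17. With 0 reads in the head, cdx4 was 96.0-fold lower or more against the floor of 3 counts (edgeR adjusted p = 0.000629). For mespa this bound was 4.27-fold (edgeR adjusted p = 0.0391, or 0.0807 without 24 hpf sample 2). The exact lower limits, which include the counting error of 24 hpf, were 78.3 for cdx4 and 3.42 for mespa. The genes mespb and cdx1a also had 0 reads in the head, with edgeR adjusted p of 0.0941 and 0.207.

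In the adult tail, 7 of the 10 were lower and 1 higher, against 26.5% and 25.4% of all genes. The lower genes were the T-box genes, msgn1, cdx4 and ripply1. Log2 changes were -5.66 for tbx6 (SE 1.26), -5.47 for msgn1 (SE 1.09), -5.37 for tbx16 (SE 1.01), -5.35 for ntla (SE 0.42), -4.22 for tbx24 (SE 0.87) and -3.74 for cdx4 (SE 0.70). Their edgeR adjusted p ranged from 9.01e-05 for ntla to 0.00826 for tbx6. Without 24 hpf sample 2 the change of tbx24 was -3.55. With 0 reads in the tail, ripply1 was 42.1-fold lower or more against the floor (exact lower limit 34.2, edgeR adjusted p = 0.000761). The higher gene was mespb, with a log2 change of 2.00 (SE 0.71, edgeR adjusted p = 0.0485) and a ratio to 24 hpf of 4.02, with a counting interval of 2.22 to 6.97. That call rests on 18 reads and on the settings: the edgeR adjusted p was 0.0928 without 24 hpf sample 1 and 0.0841 without sample 2, and DESeq2 gave 0.361. The tail library is also the one with the oocyte markers at 4047 CPM, whose part in the mespb value was not tested. For mespa and cdx1a the log2 changes were -1.56 (SE 1.1) and 1.62 (SE 1.03), with edgeR adjusted p of 0.268 and 0.224. The median log2 change of the 10 genes was -4.78 in the tail, against -0.11 over all genes. In the larva and the head, with genes at 0 set at their bound, it was -3.62 and -4.37, against -0.02 and -0.01. Limma-voom called fewer of them lower, 2 in each of larva, head and tail, which were ntla and ripply1.

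**Figure D5:**
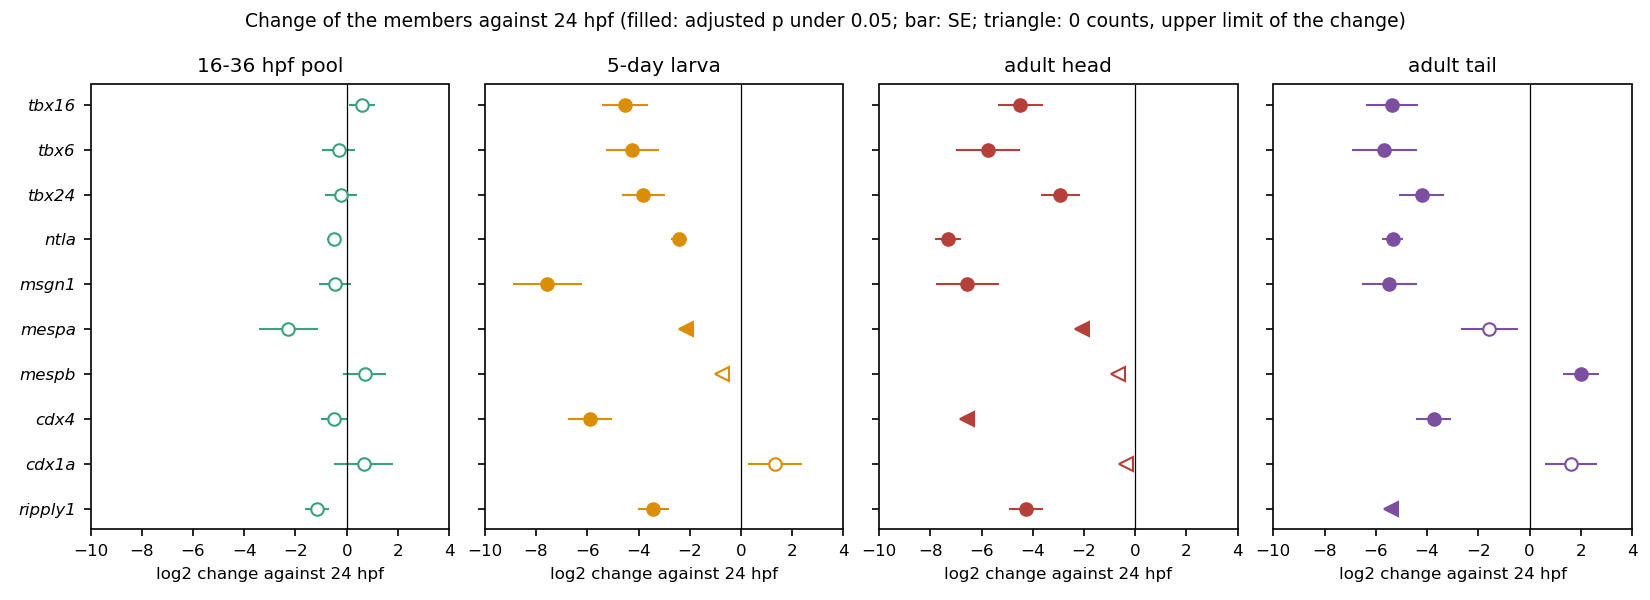
Log2 change of each of the 10 genes against 24 hpf in the pool, larva, head and tail, with bars of 1 SE, filled points where edgeR's adjusted p was under 0.05 and triangles at the bound for genes with 0 reads. In the larva, head and tail, filled points and all triangles lie below 0 except for mespb in the tail, at 2.00, and no point of the pool is filled.

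The pool shares its annotation and, nearly, its depth with the larva, head and tail, so ratios between these libraries do not cross the change of annotation. They have no replicates, and the 95% intervals cover counting error only. The pool held 12 times the tbx24 of the larva (8.17 to 18.3), 6.49 times that of the head (4.82 to 8.90) and 15.9 times that of the tail (10.1 to 26.8). For ntla it held 3.85 times the larva (3.06 to 4.87), 115 times the head (39.1 to 561) and 29.3 times the tail (16.2 to 59.1). By deposited FPKM the ntla ratios were 2.59, 47.6 and 15.3. These lower bounds all lie above 1, as they do against all 3 libraries for tbx16, tbx6, msgn1, cdx4 and ripply1. The ratios to larva, head and tail were 35.5, 34.3 and 63.9 for tbx16, and 15.4, 44.7 and 41.7 for tbx6. By FPKM the last 2 of tbx6 were 19.5 and 79.6, from 2 reads in each denominator. For msgn1 they were 146, 70.3 and 32.8, resting on 1, 2 and 4 reads in the denominator. The pool held 42.4 times the cdx4 of the larva (17.9 to 132) and 9.55 times that of the tail (6.04 to 15.9), and at least 68.3 times that of the head, against its floor of 3 counts and with no counting error of the pool in this bound. By FPKM the cdx4 ratio to the larva was 25.8. For ripply1 the ratios were 4.84 (2.65 to 9.54) and 8.68 (4.0 to 22.4) to the larva and head, and at least 18.9 to the tail by the same floor. The exact lower limits of these 2 bounds, which include the pool's counting error, were 55.1 and 14.95.

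Larva, head and tail differed among themselves in a few of the genes. The larva held 29.9 times the ntla of the head (9.93 to 148) and 7.61 times that of the tail (4.06 to 15.8). The tail held 3.93 times the ntla of the head (1.04 to 21.95), from 11 and 3 reads. The head was the richest of the 3 in tbx24, at 2.45 times the tail (1.42 to 4.41) and 1.85 times the larva (1.14 to 3.05). The tail held 4.44 times the cdx4 of the larva (1.62 to 15.15) and, against the floor, at least 7.15 times that of the head (exact lower limit 5.29). It also held more mespb, with 18 reads against 0 in the larva and head, at least 6.66 times the larva and 6.43 times the head (exact lower limits 4.88 and 4.72). For cdx1a, at 0 reads in the head, the larva held at least 3.22 times the head and the tail at least 3.93 times (exact lower limits 2.16 and 2.69). In the other direction ripply1 had 0 reads in the tail, and the larva held at least 3.90 times and the head at least 2.18 times its floor (exact lower limits 2.74 and 1.34). Intervals of tbx16, tbx6 and msgn1 between these 3 libraries all included 1, so no difference was detectable at this depth.

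Only some paralogues of these genes were found under the names searched: ntlb, cdx1b, ripply2 and ripply3. The second Brachyury gene, ntlb, had 1.05 ± 0.294 CPM at 24 hpf and 1.64 in the pool, and ripply3 had 2.89 ± 0.599 and 1.46. In edgeR's quasi-likelihood test ntlb was lower only in the head, where it had 0 reads (adjusted p = 0.0277), ripply2 was lower in larva and head, where it had 0 reads, and ripply3 was lower in larva, head and tail. The caudal-type gene cdx1b, which marks gut epithelium in zebrafish, moved the other way. Its level was 0.437 ± 0.112 CPM at 24 hpf and 1.09 in the pool, and it reached 14.4 CPM in larvae, 2.94 in heads and 17.7 in tails. Its log2 changes were 5.02 (SE 0.41), 2.73 (SE 0.53) and 5.32 (SE 0.41), with edgeR adjusted p of 0.000186, 0.00343 and 8.88e-05. The median CPM of 7 intestine markers, 1 of which is cdx1b, was 0.706 to 3.37 at 24 hpf and 1.46 in the pool. It was 205 in larvae, 19.8 in heads and 112 in tails. Their summed CPM was 1130 to 1545 at 24 hpf and 570.5 in the pool, and 1108 in larvae, 255 in heads and 1067 in tails. Their part in the cdx1a and cdx1b values was not tested.

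Clock and Delta-Notch genes were mostly lower after the embryo. In edgeR's quasi-likelihood test, 17 of the 20 measured were lower in larvae, 19 in heads and 17 in tails. Of all genes, 23.2%, 29.8% and 26.5% were lower there, and 26.4%, 32.3% and 25.4% higher. Of the 20, 0 were higher in any of these libraries, also by DESeq2, limma-voom and an unadjusted edgeR p under 0.05. In the pool edgeR called 4 lower and 1 higher, where 5.55% of all genes were lower and 6.32% higher. DESeq2 called 4 and 2, and limma-voom 0, as for all genes of these lists in the pool. The lower were repressor genes of the her4 and her15 groups, whose near-identical copies make their split uncertain, and the higher was a gene listed as notch1a (ENSDARG00000077129). The 3 most abundant at 24 hpf were the receptor gene notch3 at 460 ± 50.1 CPM, lfng, whose enzyme modifies Notch, at 343 ± 92.2, and a second gene listed as notch1a at 243 ± 32.9. Their log2 changes in the larva were -1.11, -2.78 and -2.41, and in the tail -2.84, -5.11 and -2.42, all past the test. The repressor gene her7 had 2.64 ± 1.52 CPM at 24 hpf and 5.74 in the tail, a log2 change of 1.12 that did not pass (edgeR adjusted p = 0.191).

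Of 25 Wnt, FGF and retinoic acid genes, edgeR called 1 higher in the pool, the receptor gene fgfr1a, and 0 lower, as did DESeq2. At an unadjusted edgeR p under 0.05, 3 were higher and 3 lower. By edgeR 6.32% of all genes were higher in the pool and 5.55% lower, so 25 genes cannot show a lower share. Larvae had 10 lower and 1 higher, against 23.2% and 26.4% of all genes. Heads had 15 and 0, against 29.8% and 32.3%, with 0 higher also by DESeq2, limma-voom and an unadjusted edgeR p under 0.05. Tails had 16 and 1, against 26.5% and 25.4%. The most abundant were the FGF feedback phosphatase gene dusp6 at 224 ± 17.4 CPM, the FGF-responsive factor gene etv5b at 183 ± 20.5 and aldh1a2, which makes retinoic acid, at 90.3 ± 10.1. The head had 258 CPM of dusp6, a log2 change of 0.21 that did not pass, while etv5b and aldh1a2 fell there, with log2 changes of -1.41 and -1.71. The gene higher in the tail was 1 of the pair listed as wnt8a (ENSDARG00000052910), at 33.9 CPM against 1.28 ± 0.735, a log2 change of 4.72 (SE 0.54, edgeR adjusted p = 0.000454). The tail library also holds the oocyte markers at 4047 CPM, whose part in this wnt8a value was not tested. The other wnt8a gene, ENSDARG00000078507, had 1.98 ± 1.46 CPM at 24 hpf and 0 reads in every other library, the pool included. Annotation and depth also differ between 24 hpf and those libraries, and their part in this was not tested.

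Of 19 tested genes of somite boundaries and maturation, 9 were lower in larvae, 15 in heads and 16 in tails, and 2, 2 and 1 were higher. Of all genes, 23.2%, 29.8% and 26.5% were lower in larvae, heads and tails, and 26.4%, 32.3% and 25.4% higher. In the pool 2 of the 19 were lower and 1 was higher, against 5.55% and 6.32% of all genes. The fibronectin gene fn1b, at 170 ± 98.6 CPM at 24 hpf, was higher in the larva (616), head (575) and tail (790), and the ligand gene efnb2a in the pool, larva and head. The Eph receptor gene epha4a, at 147 ± 8.35 CPM, and snai2, a regulator of cell migration, at 73.1 ± 1.5, were lower in larva, head and tail. Among 6 myogenic regulators, 3 were lower in larvae, 3 in heads and 5 in tails. The muscle determination genes myod1 (71.7 ± 6.42 CPM) and myf5 (11.8 ± 2.58) and the differentiation gene myog (95.3 ± 16.4) were lower in each. For myog the pool was lower too, at 14.7 CPM, a log2 change of -2.70 (SE 0.35, edgeR adjusted p = 0.00889). The enhancer factor gene mef2ca was higher in the pool and larva and lower in the tail, mef2d was lower in the tail, and myf6 passed in none.

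Of 13 genes of tailbud progenitors and ventral posterior mesoderm, 0 passed in the pool in edgeR, DESeq2 or limma-voom, with 1 at an unadjusted edgeR p under 0.05. There edgeR called 5.55% of all genes lower and 6.32% higher, so a list of 13 genes, or of the 12 Hox genes below, cannot show a lower share. Of the 13, edgeR called 9 lower in larvae, 12 in heads and 11 in tails, against 23.2%, 29.8% and 26.5% of all genes. The adhesion gene cdh2 (607 ± 25.8 CPM) and the neural progenitor genes sox3 (390 ± 79.5) and sox2 (169 ± 17.4), which neural tissue outside the tailbud also expresses, were lower in all 3. Of 12 terminal posterior Hox genes, 0 passed in the pool with the same 3 tools, and 3 had an unadjusted edgeR p under 0.05. By edgeR 6 were lower in larvae, 11 in heads and 10 in tails, beside the same shares of all genes. The most abundant, hoxc13a at 20.4 ± 2.11 CPM, had 3.85 in larvae, 0 in heads and 1.01 in tails. Next, hoxc12a at 14.03 ± 3.77 CPM had 9.72, 0 and 2.02, and hoxd12a at 9.26 ± 2.47 had 2.53, 0.105 and 0.337. The median log2 change in the larva was -2.88 over the clock list, -1.10 over the signals, -0.89 over the somite genes, -1.28 over the myogenic genes, -1.80 over the progenitor genes and -1.78 over the Hox genes. These lists were chosen with earlier results of the data known, so the counts describe them and are no independent evidence.

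The 10 genes themselves followed a shared course over the 7 libraries to different degrees. Each gene's Pearson correlation with the mean pattern of the 10, on log2(CPM + 0.5), was 0.99 for tbx6 and msgn1, 0.98 for cdx4, 0.97 for tbx16, 0.94 for tbx24, 0.93 for ripply1 and 0.92 for ntla. It was 0.80 for mespa, 0.28 for mespb and -0.01 for cdx1a. The mean includes each gene, and the points share the contrast of 4 embryonic libraries with 3 later ones, so these values are a description. Of 12361 genes with 5 CPM or more at 24 hpf, 233 reached 0.95 with the mean pattern. The 10 most like it, at 0.98 to 0.99, were tgif1, supt5h, unc45b, lft1, lrwd1, oc90, parp1, NUP54, e2f4 and wnt11. Of these lft1, a Nodal antagonist gene, had 3.69, 7.54 and 4.07 CPM in the 24 hpf samples, 4.19 in the pool and 0 in the larva, head and tail.

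Nearest neighbours differed from gene to gene. For ntla they were hoxa9a, hoxb9a and bhmt, each at 1.00 after rounding, and hoxa9a had 28.5 ± 0.572 CPM at 24 hpf, then 18.1 in the pool and 6.18, 0.315 and 0.787 in larva, head and tail. For msgn1 they were fgf17, lft1 and rsph4a, for tbx6 lft1, pabpc1a and flh, and for tbx16 tmcc3, lft1 and pabpc1a. For tbx24 they were zgc:110712, gata1a and si:ch1073-155h21.1, and for cdx4 GREB1 (1 of 2), oc90 and lrwd1. For ripply1 they were fubp1, foxj1a and LDLRAD2. For mespa they were CCDC97, UIMC1 (1 of 2) and raf1a. For mespb, whose highest value was in the tail, they were SMC6 (1 of 2), NUFIP1 and C4H12orf11, and SMC6 (1 of 2) had 45.8 CPM in the tail against 15.9 ± 2.61 at 24 hpf. For cdx1a, whose neighbours were less close at 0.91 to 0.94, they were lef1, cdh17 and tshz1.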

How the data were processed

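The submitters' processing notes name Zv9 as the genome build, TopHat 1.4.1 and Bowtie 0.12.7, CASAVA 1.4, Cufflinks 1.3.0 and HTSeq 0.5.3p3, without settings. The authors deposited raw counts per gene, and, per the file headers, FPKM per gene from Cufflinks. The sources used here do not give the annotation release or the strand setting. Each 24 hpf sample has 4 records, technical runs and read ends per the labels, and 1 file set, so the records count as 1 replicate. The sources used here do not say whether these files pool the runs, and the labels do not say that the samples came from separate clutches, so p-values measure only the spread between these samples.

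Counts were joined by gene ID over the 28364 shared IDs, of which 24559 had a count and 21128, all 10 members included, passed filterByExpr with a minimum count of 10. HTSeq's special counters were left out. Differences from 24 hpf were tested with edgeR 4.0.16 (TMM, 1 quasi-likelihood model of 5 groups) in R 4.3.3, with Benjamini-Hochberg adjustment and a threshold of 0.05. The model has 2 residual degrees of freedom, and lone libraries are assumed to vary like 24 hpf. SE is the log2 change divided by the square root of the F statistic. The fit was run on simulated data in which all libraries were drawn with the same spread, so this could not check how lone libraries vary. Levels at 0 counts were set at a floor of 3 counts, per library or over the 24 hpf libraries together, for bounds, and ratios have exact 95% binomial intervals. Intervals and floors cover counting error only. Alternatives were RLE size factors, library totals only, no filter, each 24 hpf sample left out, DESeq2 1.42.0 and limma-voom (limma 3.58.1), and, added after seeing the data, edgeR's older fit.

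All 10 members are named, with the 3 most abundant genes at 24 hpf of each gene list (all genes of lists of 8 or fewer), the 10 genes most like the members' mean pattern and the 3 nearest to each member; other genes were named after their values were seen. Members and lists were chosen with earlier results of these data known. Of the 10 IDs, 8 matched the table of gene names. No sequences are shown.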

Additional observations from a re-analysis of the deposited data

How the results depend on the processing

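With RLE size factors, all 40 changes of the 10 genes (4 comparisons each) kept their direction and their side of the threshold. Limma-voom called 2 of the 10 lower in each of larva, head and tail, against 8, 8 and 7 in edgeR. DESeq2, library totals only and no filter on low counts gave 7 lower in the larva and 7 in the head, since the call of mespa was lost, and each gave 7 in the tail. Leaving out 1 sample of 24 hpf gave 7 to 8 lower in the larva, 7 to 8 in the head and 7 in the tail, with mespa lost without sample 2. The count of genes higher in the tail, 1 (mespb), went to 0 without the filter, with edgeR's older fit (adjusted p = 0.0610 in edgeR, chosen after seeing the data), in DESeq2 and in limma-voom, and ranged from 0 to 1 with 1 sample of 24 hpf left out. In the pool, where no change passed, leaving out 1 sample of 24 hpf gave log2 changes from -0.64 to 0.26 for tbx6, from -0.57 to 0.43 for tbx24 and from -0.79 to 0.068 for msgn1, each above 0 without sample 2, and library totals only gave 0.0054 for tbx24. Where a call was lost, the cause was not tested. The 10 genes most like the mean pattern shared 8 with those on log2(CPM + 0.1) and 5 with those on log2(FPKM + 0.1). No paired analysis was possible because only 24 hpf has more than 1 library. Depth limits mespa, mespb and cdx1a, which had at most 67 reads in any library.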
